A study of Mus musculus with 12 samples.

Results

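The genes examined in mouse liver were 7 of the SREBP2 axis of cholesterol synthesis: Srebf2, Insig1, Hmgcs1, Idi1, Sqle, Cyp51 and Sc5d. They are the array features whose only gene symbol is one of these names, 1 feature for each of the 7 genes, out of 30775 genes with a feature of their own. Livers came from 12 mice of the C57BL6/J strain aged 12 weeks, 6 of genotype ENT3 +/+ (WT) and 6 of genotype ENT3 -/- (KO), and each was hybridised to its own MTA_2.0 array. The titles carry the letter M or F, read here as male and female, so that each genotype has 3 mice of either sex, named below by animal number. Slc29a3 encodes ENT3, a transporter that carries nucleosides across membranes. The labels do not say which stretch of Slc29a3 was removed, in which cells, or what the litters and diet were. The 6 KO mice had a Slc29a3 signal of 4.10 to 4.19 and the 6 WT mice of 4.82 to 5.29 on the deposited log2 scale, a difference of -0.94 ± 0.07 (SE; limma adjusted p = 0.000324) and of -0.95 ± 0.09 without WT females 25 and 27 described below, with all 12 values under the 95th percentile of the negative controls of their array.

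Cholesterol is made from acetyl-CoA through mevalonate, squalene and lanosterol, and the liver is a main site of this synthesis. SREBP2, the transcription factor encoded by Srebf2, is held in the endoplasmic reticulum with its escort SCAP when sterols are plentiful, bound by INSIG proteins; when sterols fall it is carried to the Golgi apparatus, cut by a pair of proteases, and its free part enters the nucleus and raises the genes of cholesterol synthesis and of lipoprotein uptake. Hmgcs1 encodes the cytosolic HMG-CoA synthase, Idi1 the isomerase of isopentenyl diphosphate, Sqle squalene epoxidase, Cyp51 the lanosterol demethylase, and Sc5d the sterol desaturase that acts near the end of the route. Srebf2 and Insig1 are themselves known targets of SREBP2. None of the 7 genes encodes a lipoprotein receptor, so lipoprotein uptake is described below only through other genes of the pathway.

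Upstream sequence is shown for 4 of the genes: for Srebf2 and Hmgcs1 because they hold a match to a sterol response element core, and for Cyp51 and Sc5d because their signals lay on opposite sides of the WT values in most KO mice. The sequences are the 250 bases before the annotated start in RefSeq (GRCm38.p6), 5′ to 3′ on the gene's strand, and 6 of the 7 genes matched the table (all but Sqle). Capitals mark a sterol response element core (TCACNCCA), an NF-Y box (CCAAT, or ATTGG on the other strand) or an E-box (CACGTG); these motifs were chosen after the sequences were seen.
Srebf2, chr15:82147019-82147268, plus strand: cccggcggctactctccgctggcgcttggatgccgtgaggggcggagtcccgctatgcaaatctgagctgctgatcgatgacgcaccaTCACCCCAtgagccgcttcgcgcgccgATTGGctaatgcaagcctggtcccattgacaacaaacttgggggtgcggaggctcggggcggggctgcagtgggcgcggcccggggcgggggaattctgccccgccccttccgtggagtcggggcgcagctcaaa
Hmgcs1, chr13:119690101-119690350, plus strand: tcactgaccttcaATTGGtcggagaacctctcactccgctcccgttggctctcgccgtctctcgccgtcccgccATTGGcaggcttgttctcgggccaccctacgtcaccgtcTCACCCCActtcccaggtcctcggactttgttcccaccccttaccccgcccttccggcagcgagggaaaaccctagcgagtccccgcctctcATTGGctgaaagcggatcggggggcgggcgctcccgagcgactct
Cyp51, chr5:4104698-4104947, minus strand: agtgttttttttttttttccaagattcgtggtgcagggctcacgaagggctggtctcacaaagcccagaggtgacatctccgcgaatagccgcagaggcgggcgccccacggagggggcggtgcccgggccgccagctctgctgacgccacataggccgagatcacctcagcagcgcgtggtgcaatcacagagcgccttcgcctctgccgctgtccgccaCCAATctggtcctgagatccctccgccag
Sc5d, chr9:42264301-42264550, minus strand: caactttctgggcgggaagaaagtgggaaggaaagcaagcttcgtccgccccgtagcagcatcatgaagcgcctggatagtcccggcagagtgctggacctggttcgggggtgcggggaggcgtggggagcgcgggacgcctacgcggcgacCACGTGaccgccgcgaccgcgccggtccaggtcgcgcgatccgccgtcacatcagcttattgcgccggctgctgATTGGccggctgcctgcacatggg

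The sterol response element core was present in 2 of the 6 windows, 162 to 155 bases before the start in Srebf2 and 137 to 130 bases before it in Hmgcs1, and in 3.67% of the 32851 windows of the table, searched on both strands. An NF-Y box lay in 6 of the 6 windows and in 33.8% of all windows, and an Sp1 box (GGGCGG, not capitalised) in 6 of 6 and 32.7%. The E-box was found in 2 of 6, Sc5d and Insig1, against 6.02% of all. No match overlapped another motif's match in these 6 windows. A match describes the letters of these windows and is not a measured binding site.

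Before the results, some features of the arrays and of their controls need to be given. WT female 27 had a mean signal of 15.04 over 4 adrenal cortex markers (Star, Cyp11a1, Cyp11b1, Cyp21a1), against 3.51 to 3.69 in the other 11 mice, and WT females 25 and 27 had a mean of 10.54 and 8.59 over 3 exocrine pancreas markers, against 3.97 to 4.22 in the others. Values without these 2 mice, an alternative chosen after seeing the data, are therefore given beside the results for the 7 genes and the pathway count. Poly-A spikes were lower in KO arrays by 0.86 (p = 0.005 by a two-sided exact permutation test that reassigned genotype among mice of a sex in 400 ways, which can give no smaller p; Benjamini-Hochberg p = 0.01 over 6 measures), and the 95th percentile of the negative controls was higher, 6.68 against 6.32 (exact permutation p = 0.005, Benjamini-Hochberg p = 0.01). Of 8 Kupffer cell and macrophage markers 7 rose in KO livers, with list means of 7.59 to 8.88 in WT and 9.60 to 13.46 in KO mice, and of 8 neutrophil markers 6 rose, with means of 4.18 to 4.89 and 5.35 to 9.15 (limma adjusted p under 0.05); the part of any of these in the values below was not tested. None of the 6 hepatocyte markers was called, although 4 of them were at the ceiling of the scale on every array. In whole liver, fewer cells of a type and less RNA per cell cannot be told apart.

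Genotype was compared first over both sexes, to ask how the cholesterol genes stand in livers without the transporter. The 7 genes did not move as a block: Sc5d fell, Sqle and Cyp51 had higher means in KO without passing the test, and Srebf2, Insig1, Idi1 and Hmgcs1 did not pass in either direction. The limma test with Benjamini-Hochberg adjustment over 65956 features called 1 of the 7 (Sc5d, lower in KO) and none higher. An unadjusted p under 0.05 was found for 3 of the 7 and for 15331 of all 65956 features. Over all features 9.75% were called, 4.47% lower and 5.28% higher in KO. The median KO minus WT difference was -0.12 over the 7 genes and 0.05 over all features. The signals of each mouse are shown in the plot by group.

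**Figure D1:**
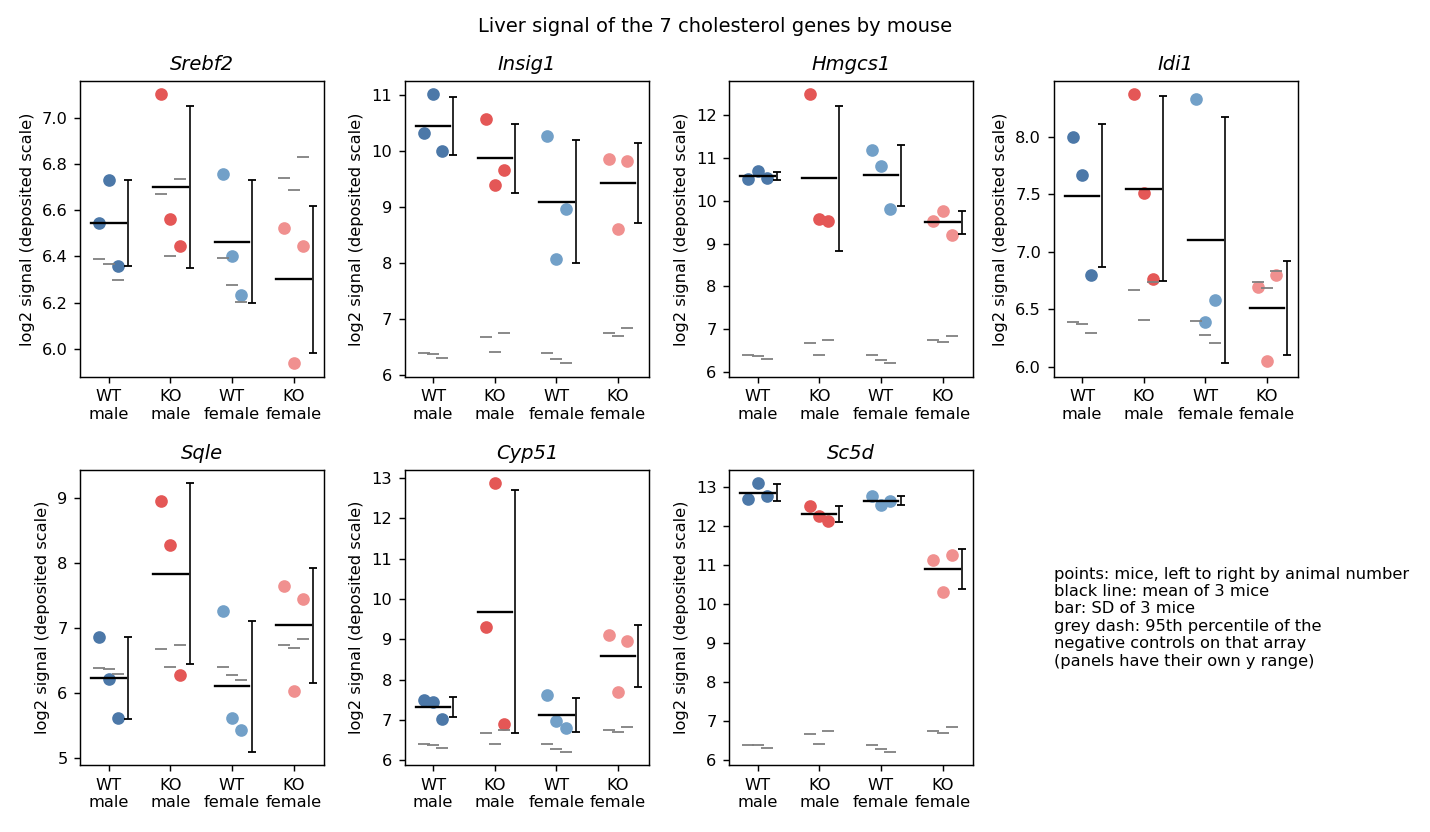
Log2 signal on the deposited scale (y, own range per panel) of the 7 genes in each mouse (points, 3 per group), with the group mean (black line), the SD (bar) and the 95th percentile of the negative controls of that array (grey dash). Sc5d values of all 6 KO mice lie below those of all 6 WT mice, whereas Cyp51 reaches 12.87 in KO male 19 and Hmgcs1 12.49 in KO male 18.

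Sc5d encodes the desaturase that introduces a double bond into the sterol ring late in the pathway. Its log2 signal was 12.67, 13.09 and 12.77 in WT males 17, 23 and 33 and 12.77, 12.52 and 12.65 in WT females 25, 27 and 38. It was 12.51, 12.25 and 12.11 in KO males 18, 19 and 39, and 11.12, 10.30 and 11.24 in KO females 13, 40 and 69. The highest KO value lay just below the lowest WT value, so the genotypes did not overlap, as was the case for 3.91% of all features. KO livers were lower by 2.23-fold, a log2 difference of -1.16 ± 0.16 (SE; limma adjusted p = 0.00238, lower in 6 of 6 KO mice than the WT mean of their sex). Without WT females 25 and 27 the difference was -1.16 ± 0.21 (limma adjusted p = 0.0184). With no term for sex it was not called (limma adjusted p = 0.055), nor with a covariate for the poly-A spikes, which themselves differ between the genotypes (-0.99 ± 0.41, limma adjusted p = 0.52).

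By mean, WT males came first (12.84 ± 0.22, SD, n = 3), then WT females (12.65 ± 0.12), KO males (12.29 ± 0.20) and KO females (10.89 ± 0.51). The WT groups overlapped, and each of the later groups lay wholly below the one before it. In females Sc5d fell by 1.76 ± 0.23 on the log2 scale, 3.39-fold (limma adjusted p = 0.00307), and it was the 1 of the 7 genes called there, where 6.19% of all features were. In males the difference was -0.55 ± 0.23 (95% interval -1.06 to -0.05), which missed the threshold (limma adjusted p = 0.334). In males limma called 0 of the 7 genes, against 1.09% of all features called. Of the 7, 1 (Sc5d) had an unadjusted p under 0.05 in males, as did 8452 of all 65956 features. The difference between the sexes in the KO effect on Sc5d was -1.21 ± 0.32 and was not called after adjustment (limma adjusted p = 0.43). In that test 0 of the 7 genes passed, and 0.00152% of all features were called. Of the 7, 1 (Sc5d) had an unadjusted p under 0.05 for it, as did 4396 of all 65956 features.

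Sc5d was also the 1 of the 7 genes that differed between the sexes, lower in females by 0.80 averaged over the genotypes (limma adjusted p = 0.0464), where 1.23% of all features were called. The WT female and WT male means differed by less than the KO means did, 12.65 against 12.84 and 10.89 against 12.29. This call did not hold in 11 of the 12 fits that left out a mouse (all but that without KO female 40), nor without WT females 25 and 27.

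Cyp51, the cytochrome P450 that removes a methyl group from lanosterol, varied more among KO than among WT livers. The WT values were 7.50, 7.44 and 7.02 in males 17, 23 and 33 and 7.61, 6.96 and 6.79 in females 25, 27 and 38. KO males 18, 19 and 39 had 9.30, 12.87 and 6.88, and KO females 13, 40 and 69 had 9.10, 7.70 and 8.96. Thus 5 of 6 KO mice lay above every WT mouse, and KO male 39 lay within the WT range. The difference was 1.92 ± 0.81 (95% interval 0.10 to 3.73), 3.77-fold, and was not called (limma adjusted p = 0.189). Without KO male 39 it was 2.62 and was called (limma adjusted p = 0.0267), and without KO male 19 it was 1.12 and was not. Without WT females 25 and 27 it was 2.08 ± 1.10 (limma adjusted p = 0.342). With the poly-A covariate it was 6.4 ± 1.4 and not called (limma adjusted p = 0.203).

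Sqle encodes squalene epoxidase, which adds oxygen to squalene before the ring is closed. Its signal was 6.86, 6.22 and 5.61 in WT males 17, 23 and 33 and 7.26, 5.61 and 5.43 in WT females 25, 27 and 38. KO males 18, 19 and 39 had 8.94, 8.28 and 6.28, and KO females 13, 40 and 69 had 7.65, 6.02 and 7.44. It exceeded the 95th percentile of the negative controls on 6 of 12 arrays, 4 of them KO, so its size is not exact. The same 4 KO mice, males 18 and 19 and females 13 and 69, lay above every WT mouse. The difference, 1.27 ± 0.52 (95% interval 0.10 to 2.44), was not called (limma adjusted p = 0.176; with each mouse omitted in turn, 0.0516 to 0.321). Without WT females 25 and 27 it was 1.61 ± 0.62 (limma adjusted p = 0.191). With the poly-A covariate it was 2.5 ± 1.3 (limma adjusted p = 0.624).

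Hmgcs1, the synthase that commits acetoacetyl-CoA to the mevalonate route, had the opposite tendency with 1 exception. WT males 17, 23 and 33 had 10.52, 10.69 and 10.54, and WT females 25, 27 and 38 had 11.18, 10.83 and 9.81. KO females 13, 40 and 69 had 9.53, 9.76 and 9.21, and KO males 19 and 39 had 9.57 and 9.54, all below every WT mouse. KO male 18, at 12.49, lay above every WT mouse. The difference was -0.58 ± 0.48 over all mice (limma adjusted p = 0.532) and -1.07 ± 0.23 without KO male 18 (limma adjusted p = 0.0236), so that 1 mouse decides the call. It was smaller without KO male 19 (-0.34), without KO male 39 (-0.33) and without WT females 25 and 27 (-0.18 ± 0.61), and was not called in any of these fits (limma adjusted p = 0.724, 0.766 and 0.906). Within females the genotypes did not overlap and the difference was -1.11 ± 0.68, which did not pass (limma adjusted p = 0.403). Its error comes from the spread shared by all 4 groups, males included. The SD of Hmgcs1 was 0.71 in WT females, 0.28 in KO females, 0.09 in WT males and 1.70 in KO males. Among females 3 of the 7 genes, Hmgcs1, Cyp51 and Sc5d, had no overlap between genotypes, and among males 1 of 7, Sc5d; over all features the shares were 25.7% and 18.6%.

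Idi1, which interconverts the 5-carbon building blocks of the route, ranged from 6.38 to 8.33 in WT and from 6.04 to 8.37 in KO mice, and 4 of 6 KO mice lay inside the WT range, with KO male 18 above it and KO female 40 below. Its difference was -0.26 ± 0.40 (95% interval -1.15 to 0.62, limma adjusted p = 0.753), and -0.0051 ± 0.39 without WT females 25 and 27. Idi1 was above the 95th percentile of the negative controls on 9 of 12 arrays.

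Of the regulators, Srebf2 had a WT mean of 6.50 ± 0.21 (SD, n = 6) and a KO mean of 6.50 ± 0.37 (SD, n = 6). The values ran from 6.23 to 6.76 in WT and from 5.94 to 7.10 in KO mice, with KO male 18 the highest and KO female 40 the lowest of the 12. The 95% interval of the difference was -0.34 to 0.34 (limma adjusted p = 0.998), and without WT females 25 and 27 the difference was 0.11 ± 0.19. Srebf2 exceeded the negative controls' 95th percentile on 8 of 12 arrays, and transcript signal does not measure cleavage of the protein. Insig1, which retains SREBP2 in the endoplasmic reticulum, ranged from 8.06 to 11.01 in WT and from 8.61 to 10.56 in KO mice. Its difference was -0.12 ± 0.40 (95% interval -1.01 to 0.77, limma adjusted p = 0.899), and -0.05 ± 0.38 without WT females 25 and 27.

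**Figure D2:**
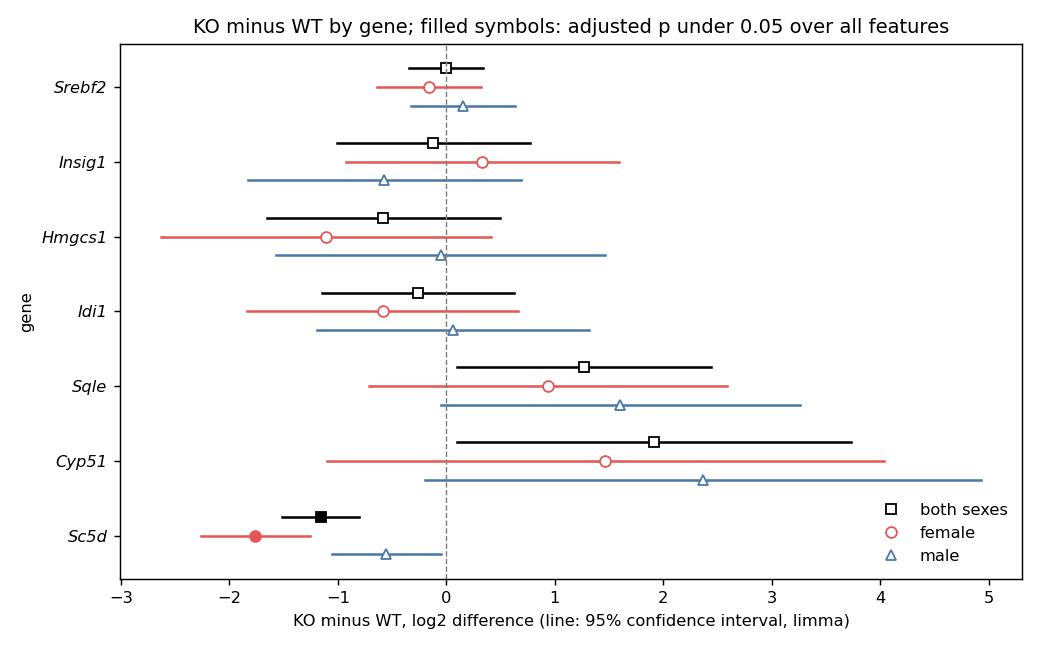
KO minus WT log2 difference (x) for each of the 7 genes (y), over both sexes (squares), in females (circles) and in males (triangles), with 95% intervals from limma; filled symbols have an adjusted p under 0.05. Sc5d is filled over both sexes (-1.16) and in females (-1.76), and the intervals of Srebf2, Insig1, Hmgcs1 and Idi1 over both sexes span 0.

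Mice of the same group differed from each other in most of these genes at once. WT female 25 had the highest signal of its group for 7 of 7 genes, and KO male 18 for 6 of 7, all but Cyp51. KO male 39 had the lowest signal of its group for 6 of 7 genes, all but Insig1, and KO female 40 for 6 of 7, all but Hmgcs1. WT female 25 is 1 of the 2 mice with exocrine pancreas marker signal. KO female 40 had the highest Kupffer cell and macrophage marker mean of the 12 mice, 13.46 against 10.96 and 10.69 in the other KO females, a stellate cell marker mean of 8.33 against 7.55 and 7.49, and the lowest hepatocyte marker mean, 18.42. Since 4 of the 6 hepatocyte markers were at the ceiling on every array, that mean could differ only through the remaining markers. KO male 39 had the lowest neutrophil marker mean of the KO mice, 5.35, and also their lowest Kupffer cell and macrophage marker mean, 9.60. The part of these in the deviations was not tested. The map of deviations from the group mean shows these columns of like sign.

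**Figure D3:**
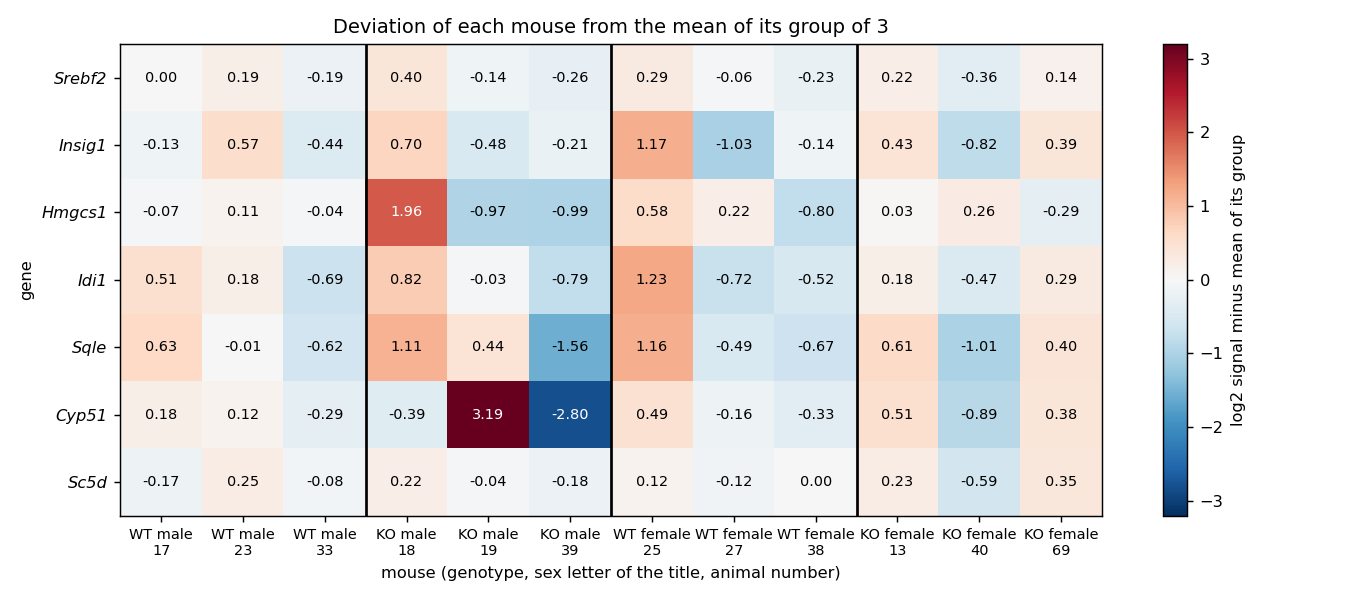
Log2 signal of each mouse (columns, by group and animal number) minus the mean of its group of 3, for the 7 genes (rows); red is above and blue below the group mean, and the values are printed. WT female 25 is above its group mean for all 7 genes and KO male 39 is below it for all 7.

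To describe this variation apart from genotype and sex, each value was centred on its group mean and the 21 pairs of genes were correlated over the 12 mice, with two-sided exact permutation within groups. Of the 21 pairs 20 had r above 0, with a median of 0.62, and 7 pairs had a Benjamini-Hochberg p under 0.05. The strongest pair was Idi1 and Sqle (Pearson r = 0.92, exact permutation p = 0.00309, Benjamini-Hochberg p = 0.0405; Spearman rho = 0.90, exact permutation p = 0.00309, Benjamini-Hochberg p = 0.0567). Srebf2 was among the pairs that passed with Sqle (r = 0.85), Idi1 (0.84), Insig1 (0.83) and Sc5d (0.81), and the other passing pairs were Idi1 with Insig1 (0.83) and Sc5d with Insig1 (0.75). By Spearman's rho 0 pairs passed the adjustment and 7 had an unadjusted exact p under 0.05.

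Hmgcs1 and Cyp51 were the least like the others, with r = -0.07 between them and with no pair that passed. In WT mice alone, centred by sex, all 21 pairs had r above 0 (median 0.76), and Hmgcs1 and Cyp51 were at 0.73. In KO mice 19 of 21 were above 0 (median 0.69), and Hmgcs1 and Cyp51 were at -0.13; each of these rests on 6 mice, and the difference between the genotypes was not tested. Without the 2 mice farthest from the median of the first gene of a pair, r was above 0 in 18 pairs, 17 of them among the 20 above 0 over all mice, and 0 passed the adjustment, with 3 at an unadjusted exact permutation p under 0.05. For Idi1 and Sqle r was then 0.88 without KO male 39 and WT female 25. Without WT females 25 and 27, 20 of 21 pairs had r above 0 (median 0.61) and 0 passed the adjustment, with 6 at an unadjusted exact permutation p under 0.05. With 1 mouse omitted, 12 pairs passed without KO male 19, 9 without WT male 17, 1 without WT male 23, 1 without KO male 18, and 0 without any of WT male 33, WT females 25, 27 and 38, KO male 39, and KO females 13, 40 and 69. In these fits 6 to 13 pairs had an unadjusted exact permutation p under 0.05, against 9 over all mice. Fewer mice allow fewer arrangements and so coarser exact p-values. A count of 0 after adjustment therefore does not show that the correlations were lost.

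The genes outside the 7 whose centred values were most like the mean of the 7 over the 12 mice, among 1638 well-measured genes, were Megf9, which encodes a transmembrane protein with EGF-like domains (Pearson r = 0.91), St6gal1, a sialyltransferase (0.91), Dnajc12, a co-chaperone (0.86), and the ribosomal protein genes Rpl37a (0.86) and Rps26 (0.82). Spearman's rho for these 5 ran from 0.76 to 0.90. Over the 1638 genes the 95th percentile of r was 0.55. Ribosomal protein genes have near-identical copies that array probes may not separate.

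The rest of the pathway was described through 37 measured genes in 5 lists by role. Of these, 4 rose, 3 fell and 30 did not pass, and their median difference was 0.01 against 0.05 over all features. An unadjusted p under 0.05 was found for 17 of the 37 and for 15331 of all 65956 features. Over all features 5.28% rose, 4.47% fell and 9.75% were called either way. The balance of directions turned with the scaling and the filter: 3 rose and 7 fell with arrays centred on their medians, and 1 rose and 6 fell among features above the negative controls on at least 3 arrays. Without WT females 25 and 27, 3 rose and 2 fell. The differences are shown by role in the plot of the other pathway genes.

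**Figure D4:**
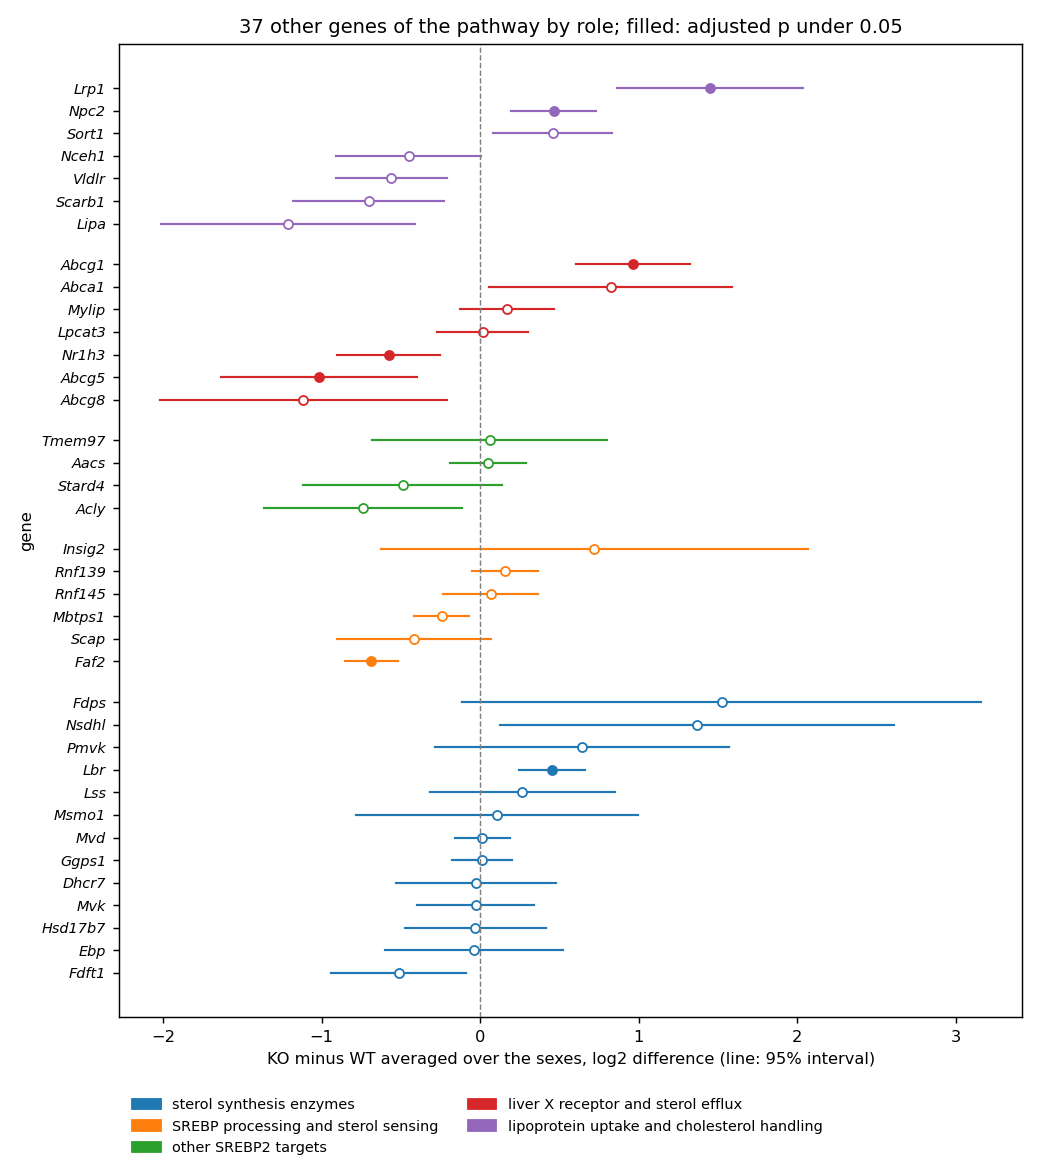
KO minus WT log2 difference averaged over the sexes (x) for 37 other genes of the pathway (y), coloured by role, with 95% intervals from limma; filled points have an adjusted p under 0.05. Filled points are Lrp1, Npc2, Abcg1 and Lbr on the right and Faf2, Nr1h3 and Abcg5 on the left, and the sterol synthesis enzymes other than Lbr are open.

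Among 13 other enzymes of sterol synthesis, 1 rose and 12 did not pass, with a median of 0.01. Lbr, a sterol reductase of the nuclear envelope that also anchors chromatin, rose by 0.45 ± 0.09 (limma adjusted p = 0.0141), with a signal above the negative controls' 95th percentile on 1 of 12 arrays. Fdps, which makes farnesyl diphosphate, and Nsdhl, which acts after Cyp51 in removing methyl groups, are named after their values were seen. Fdps was at 11.74 in KO male 19, against 5.45 to 6.79 in WT mice, and Nsdhl at 9.70 against 5.48 to 6.25, so that the mouse with the highest Cyp51 was also the highest for these 2 enzymes. KO male 19 was also the highest for Mvk, Pmvk, Lss, Ebp and Dhcr7, but not for Mvd, Ggps1, Fdft1, Msmo1, Hsd17b7 or Lbr. Among the 12 fatty acid genes given below it was the highest for Fasn, Fads1 and Thrsp. Over all mice Fdps differed by 1.52 ± 0.73 (limma adjusted p = 0.251) and Nsdhl by 1.37 ± 0.56 (limma adjusted p = 0.171). Low signal limits several of these ranks and differences. Fdps was above the negative controls' 95th percentile on 6 of 12 arrays and Nsdhl on 4. Lss and Dhcr7 were above it on 1 array each, and Mvk, Mvd and Ggps1 on 0.

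Among 6 genes of SREBP processing and sterol sensing, 1 fell: Faf2, which takes part in extracting proteins, INSIG1 among them, from the endoplasmic reticulum for breakdown, fell by 0.69 ± 0.08 on the log2 scale (limma adjusted p = 0.000937). Faf2 was at 8.66 to 9.11 in WT and 7.86 to 8.69 in KO mice, and 5 of 6 KO mice lay below every WT mouse. Of 4 other genes known as SREBP2 targets 0 passed the limma test, with 1 at an unadjusted p under 0.05: Acly, which makes cytosolic acetyl-CoA, differed by -0.74 ± 0.28 (limma adjusted p = 0.141), and Stard4, a sterol carrier, by -0.49 ± 0.28 (limma adjusted p = 0.344). Acly was at 10.06 in WT female 27, the mouse with adrenal cortex marker signal, against 8.08 to 9.03 in the other WT mice. The part of that signal in the Acly difference was not tested.

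Of 7 genes of the liver X receptor and sterol efflux 1 rose and 2 fell. Abcg1, which exports cholesterol and is abundant in macrophages, was at 4.97 to 5.21 in WT and 5.28 to 6.89 in KO mice with no overlap, a difference of 0.96 ± 0.16 (limma adjusted p = 0.00517), within the range of the negative controls on 11 of 12 arrays. Nr1h3, the liver X receptor alpha, fell by 0.58 ± 0.15 (limma adjusted p = 0.0335), and Abcg5, a subunit of the transporter that moves sterols into bile, fell by 1.02 ± 0.28 (limma adjusted p = 0.0455). The Kupffer cell and macrophage marker means given above rose in the same livers as Abcg1, and their part in it was not tested.

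Of 7 genes of lipoprotein uptake and intracellular cholesterol handling 2 rose and 5 did not pass, although 6 of 7 had an unadjusted p under 0.05 and the list's median was -0.45. Over all 65956 features 15331 had an unadjusted p under 0.05. Lrp1, a large endocytic receptor of the lipoprotein receptor family, was at 11.86 to 12.45 in WT and 12.66 to 14.35 in KO mice with no overlap, a difference of 1.45 ± 0.26 (limma adjusted p = 0.00778). Npc2, which hands cholesterol out of the lysosome, rose by 0.46 ± 0.12 (limma adjusted p = 0.0379), with a signal above the negative controls' 95th percentile on 1 of 12 arrays. Among the genes that did not pass, these 3, named after their values were seen, had lower means in KO: Lipa, the lysosomal acid lipase (-1.21 ± 0.36), Scarb1, the receptor that takes up cholesterol from high-density lipoprotein (-0.70 ± 0.21), and Vldlr, the very-low-density lipoprotein receptor (-0.56 ± 0.16), with limma adjusted p = 0.0642, 0.0694 and 0.0504. Nceh1 also had a lower mean in KO without passing, and Sort1 a higher one. Scarb1 was at 11.60 in WT female 27, the mouse with adrenal cortex marker signal, against 10.37 to 10.91 in the other WT mice. The part of that signal in the Scarb1 difference was not tested. Vldlr passed in females (-1.01 ± 0.22, limma adjusted p = 0.0276), with a signal under the negative controls' 95th percentile on all 12 arrays. Its highest values were those of WT females 25 and 27, 6.13 and 5.54, the mice with exocrine pancreas marker signal. WT female 38 was at 5.10 and the KO females were at 4.56 to 4.63. The part of the other tissue's signal in this call was not tested. Lrp1 is also expressed in macrophages, whose markers rose in the same mice.

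For comparison, 12 genes of fatty acid synthesis known as SREBP1 targets had a median of -0.41; limma called 5 lower in KO and left 7 uncalled, against 4.47% of all features called lower. The 3 with the smallest p were Elovl6, an elongase, at -1.97 ± 0.16, Fads2, a desaturase, at -2.87 ± 0.37, and Gpam, an acyltransferase of triglyceride synthesis, at -1.62 ± 0.25 (limma adjusted p = 0.000345, 0.00178 and 0.00337). All 6 KO values of Elovl6, 6.58 to 8.99, lay below all WT values, 9.37 to 10.26. Whether these counts differ from those of the cholesterol genes was not tested.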

How the data were processed

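The deposited values are log2 signals per feature, which the authors deposited; the submitters' processing notes name Transcriptome Analysis Console, without a version. For background, normalization, probe summary and build, no method is given in the sources used here. Medians per array lay between 3.76 and 3.89, and differences are on the deposited scale. Of 72688 features, 6732 controls were kept out of tests. Symbols came from platform annotation, with old names of a gene merged through RefSeq: 31245 of 65956 transcript features had 1 gene, 1505 several and 33206 none. The 12 arrays entered a limma fit (3.58.1, under R 4.3.3) with a mean for each of 4 groups and 8 residual degrees of freedom, with p-values adjusted by Benjamini-Hochberg over 65956 features at a threshold of 0.05; all features stayed in. Each of the 7 genes had 1 feature. Errors of differences are standard errors. The fit was tested on simulated data: 46%, 94%, 98% and 100% of features changed by 0.5, 1, 2 and 4 (log2) were recovered over 65956 features, with 4 false calls. Changed features were drawn at random, and the noise was normal, independent and of equal size in both genotypes. These shares therefore do not carry over to genes of wide or unequal spread. The SD of Cyp51 was 3.01 in KO males and 0.26 in WT males. Each limma p-value sets a difference against the spread between mice, taken as 1 estimate over the 4 groups, also for the differences within a sex. The eBayes step of limma draws that estimate towards the spread of all features. The number of arrays limits the precision.

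The genes, lists and alternatives were chosen with earlier results of these data known. Genes named were the 7; Slc29a3; called genes of each role list or, where none was called, the 2 with the smallest p (Fdps, Nsdhl, Lipa, Scarb1 and Vldlr are outside this rule); the 3 smallest p of the SREBP1 list; and the 5 genes most like the mean of the 7 (Pearson r of values centred on group means, SD at least 0.2, above the 95th percentile of negative controls and below the ceiling on all arrays, with predicted, RIKEN, small RNA and pseudogene entries left out). Of 48 pathway genes 37 had a feature of their own. Marker lists whose KO against WT calls are not given above were tested by limma too. For sinusoidal endothelium 2 of 5 genes were higher and 2 lower in KO. For stellate cells, cholangiocytes, adipose tissue, adrenal cortex and exocrine pancreas 0 were called. In that order, 0 of 5, 1 of 4, 1 of 3, 0 of 4 and 1 of 3 had an unadjusted limma p under 0.05. WT female 27 had an adipose marker mean of 4.55, against 3.47 to 3.72 in the other mice. All 3 adipose markers were under the negative controls' 95th percentile on every array. Alternatives were other scalings, a filter on low signal, other limma settings, a poly-A covariate and left-out mice.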

Additional observations from a re-analysis of the deposited data

Results flagged for a closer look

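The Hmgcs1 signal of KO male 18, 12.49, stood apart from the other 5 KO mice, the nearest of which was at 9.76. The gap was 0.832 of the range of the 6 KO mice. This was the 1 such value among 16 groups of 6 mice tested (the 7 genes and Slc29a3 in each genotype), and chance flags about 1 in 20 groups. The same mouse had the highest signal of its group for 6 of the 7 genes. Its mean over the 8 neutrophil markers, 9.15, was the highest of the 12 mice, and the part of this in its Hmgcs1 signal was not tested.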

How the results depend on the processing

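The count of the 7 genes called for KO against WT over both sexes, 1, was 0 with no sex term and 0 with the poly-A covariate, and 1 to 2 when any 1 mouse was left out (Hmgcs1 joined without KO male 18, Cyp51 without KO male 39). In females it was 0 with the poly-A covariate. The call of Sc5d between the sexes became 0 with an eBayes trend, with the poly-A covariate, without KO male 19 and WT female 38, and without WT females 25 and 27, and 0 to 1 when 1 mouse was left out. The 7 calls among the other pathway genes were 0 with the poly-A covariate, 4 without KO male 19 and WT female 38, 5 without WT females 25 and 27, and 5 to 9 when 1 mouse was left out. Slc29a3 was at -0.80 and not called with the poly-A covariate (limma adjusted p = 0.222).

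Signs near 0 turned. Srebf2 was at 0.055 with array weights, 0.11 with the poly-A covariate, 0.11 without WT females 25 and 27, and -0.10 to 0.089 when 1 mouse was left out. Idi1 was at 0.23 with the poly-A covariate and -0.47 to 0.045 when 1 mouse was left out. Insig1 was at 0.030 with array weights and -0.38 to 0.17 when 1 mouse was left out. The causes were not tested. Sc5d kept its call in 19 of 21 alternatives, and Sqle its sign in 21 of 21. The 7 correlated pairs became 0 without the 2 mice farthest from the median and 0 without WT females 25 and 27, which leave fewer mice, and 0 to 12 when 1 mouse was left out. With 1 mouse left out, 6 to 13 pairs had an unadjusted exact permutation p under 0.05. No paired analysis was possible because no animal number occurs in more than 1 group. The feature of second highest mean could not be used, since each of the 7 genes has 1 feature, and Slc29a3 does not pass the filter on low signal. Signal within the range of the negative controls limits Srebf2, Idi1 and Sqle.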
